A study of Mus musculus with 17 samples.

Results

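The 45 genes described here encode ribosome biogenesis factors, nucleolar proteins that make and process ribosomal RNA and assemble it into subunits without being part of the finished ribosome. They were taken by symbol from a fixed list of names, and all 45 were found among the 35321 genes of the count table. The list was chosen with earlier results of these data known. Polyadenylated RNA was sequenced in 17 libraries of HSPC, that is, hematopoietic stem and progenitor cells, which give rise to all blood lineages. The cells were sorted from the bone marrow of wild-type C57BL/6J mice, an inbred laboratory strain, whose age and sex are not given in the sources used here. The study compared 5 groups. Control mice received phosphate-buffered saline (PBS, 5 libraries, labelled day 0). Mice in the second group received lipopolysaccharide (LPS, an outer membrane molecule of bacteria that provokes an innate immune response) and were sampled after 24 h (3 libraries). Mice in the third group received LPS with an antibody that blocks the receptor of interleukin-10, an anti-inflammatory cytokine, and were sampled after 24 h (3 libraries). The other groups were LPS alone at 72 h (3 libraries) and LPS with the antibody at 72 h (3 libraries). All injections were intraperitoneal, and the amounts are given in one description as LPS at 5 micrograms with antibody at 100 micrograms and in another as the same figures in milligrams. A group with the antibody and no LPS was not analysed here. The labels do not say how many mice each library holds, so p-values measure the spread between libraries.

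Ribosome assembly begins in the nucleolus, where RNA polymerase I transcribes a long ribosomal RNA precursor. Small nucleolar ribonucleoproteins modify this precursor, box C/D particles by methylation of the ribose and box H/ACA particles by pseudouridylation. A large complex, the small subunit processome, folds and cleaves the part that becomes the 40S subunit, and a separate set of factors builds the 60S subunit before export to the cytoplasm. The pathway uses much of the energy of a growing cell, and blood stem cells at rest are known for a low rate of protein synthesis.

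The libraries held between 10516722 and 16006001 counts, and the members had between 314 and 49795 counts in any library. Counting error is therefore part of the spread between libraries, mostly for members of low level. All 45 members passed the filter on low counts, as did 14920 genes in all. Levels are given as CPM, the count of a gene scaled to a common library total after correction for composition. The first LPS 24 h library stood apart with a scaling factor of 0.799, against 0.947 to 1.12 in the other 16, and results that rest on it are also given without it. Markers of the labelled cells were present in every library, with Kit at 228 to 589 CPM, Cd34 at 234 to 848 CPM, Ly6a at 32.6 to 632 CPM and Flt3 at 51.5 to 619 CPM, whereas Slamf1 was low at 0.731 to 4.12 CPM. The libraries are bulk samples, in which fewer cells of a type and less RNA per cell cannot be told apart. Names of the libraries are written without brackets for the PBS libraries and for both 24 h libraries numbered 1, and with brackets for the rest. For PBS, any batch behind this difference cannot be told apart from the group.

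The summed level of the 45 transcripts varied across the groups. They took 0.875% ± 0.104 of all counts in PBS (SD, n = 5, range 0.774% to 1.04%). In LPS at 24 h the share was 1.5% ± 0.0924 (SD, n = 3, range 1.39% to 1.55%), and with the antibody it was 1.32% ± 0.211 (SD, n = 3, range 1.19% to 1.56%). No library of either 24 h group was as low as the highest PBS library. At 72 h the share was 0.716% ± 0.026 after LPS alone (SD, n = 3, range 0.688% to 0.739%), below every PBS library. In LPS with the antibody at 72 h it was 1.34% ± 0.01 (SD, n = 3, range 1.33% to 1.35%), above every PBS library and without overlap with LPS alone.

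The mean log2 CPM over the 45 genes also placed LPS at 24 h highest and LPS at 72 h lowest. The PBS libraries were at 7.08, 6.62, 6.63, 6.88 and 6.73. The LPS 24 h libraries were at 7.95, 7.50 and 7.74, and those with the antibody at 24 h were at 7.39, 7.76 and 7.30. All 6 exceeded the highest PBS library, and the groups at 24 h overlapped each other. The LPS 72 h libraries were at 6.52, 6.60 and 6.55, while those with the antibody at 72 h were at 7.44, 7.39 and 7.44. The 3 libraries of LPS alone at 72 h were the lowest of the 17, with an SD of 0.04, and the antibody libraries at 72 h lay inside the range of the antibody libraries at 24 h. By group mean of the log2 CPM, all 45 members were highest in LPS at 24 h, 38 were lowest in LPS at 72 h, and the other 7 were lowest in PBS.

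**Figure D1:**
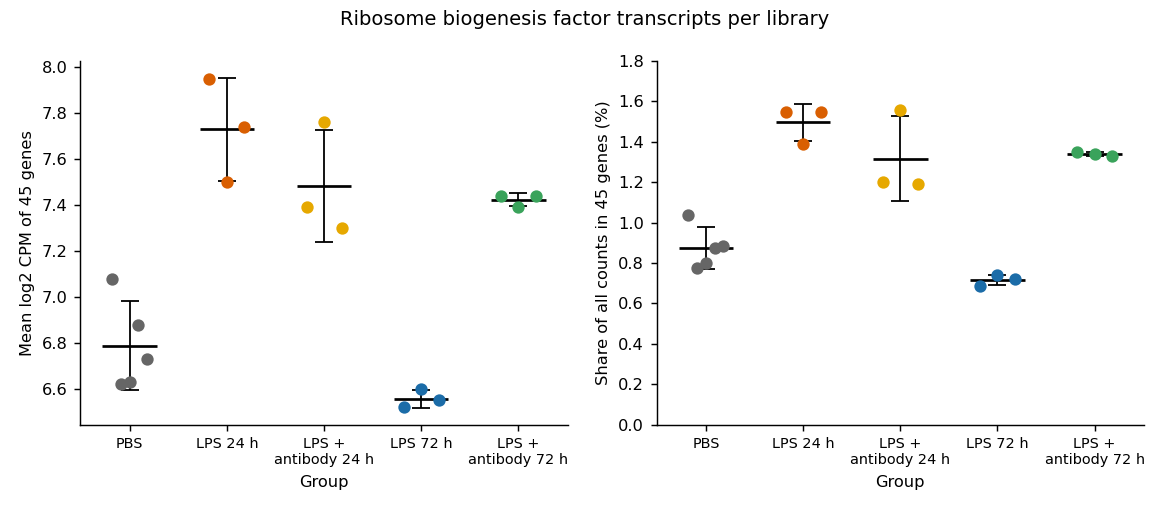
Left: mean log2 CPM of the 45 ribosome biogenesis factors in each of the 17 libraries (points), with the group mean (wide bar) and SD (whiskers). Right: share of all counts held by the same genes, in percent. The LPS 72 h libraries lie between 6.52 and 6.60 and the antibody libraries at 72 h between 7.39 and 7.44, on either side of most PBS libraries.

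Levels between genes can be compared only per length of transcript. In PBS, Npm1 had the highest level, at 529 CPM per kb of annotated exon, followed by Ncl at 151 and Nop10 at 118. Wdr12 was lowest at 8.32, and the median over members was 23.5 CPM per kb. Exons were merged over all annotated transcripts, including those with retained introns, which lowers the value of genes such as Ncl and Wdr12 with 10188 and 11955 merged bases. The members lie on 17 chromosomes of the mouse build GRCm38. Npm1 lies at chr11:33152287-33163206 on the minus strand, Ncl at chr1:86344719-86359400 on the minus strand, Polr1a at chr6:71909053-71984935 on the plus strand and Polr1b at chr2:129100995-129126594 on the plus strand. Among them 8 genes carry 23 annotated small nucleolar RNA genes within their bounds, and these RNAs were not analysed here. In 19 members some exon sequence is also exon of another annotated gene, 18 of them on the opposite strand, and no source used here says that counting used the strand. The largest such overlaps were 32.3% of the exon bases for Tsr1 (with Srr), 20.9% for Noc2l (with Samd11), 11.5% for Utp14a and 9.37% for Bysl (with Ccnd3), so the values of these 4 genes are less certain.

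At 24 h after LPS, every ribosome biogenesis factor was higher than in PBS. All 45 rose in edgeR's quasi-likelihood test, against 19.1% of all genes tested that were called higher (adjusted p-value below 0.05, Benjamini-Hochberg over 14920 genes). The log2 changes ran from 0.51 to 1.44 with a median of 0.90, while the median over all genes was -0.03. For all 45 members each LPS library exceeded each PBS library, which held for 20.6% of all genes. Without the first LPS 24 h library, 44 members were called and the median was 0.85.

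The catalytic core of RNA polymerase I rose by a similar amount in both subunits. Polr1a, the largest subunit, was at 148, 109, 120, 133 and 134 CPM in PBS and at 187, 186 and 231 CPM in LPS at 24 h, a log2 change of 0.64 ± 0.142 (approximate SE, edgeR adjusted p = 0.00306). The second-largest subunit, Polr1b, was at 103, 69.1, 82.1, 84.1 and 87 CPM in PBS and at 151, 136 and 176 CPM after LPS, a log2 change of 0.86 ± 0.142 (edgeR adjusted p = 0.000685). For both genes all 3 LPS libraries lay above all 5 PBS libraries.

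The box C/D core proteins had a median log2 change of 0.78 (3 genes) and the box H/ACA proteins one of 1.18 (5 genes), a difference that was not tested. In LPS 24 h libraries 1, 2 and 3, mean log2 CPM minus the PBS mean was 1.06, 0.7 and 0.76 for box C/D. For box H/ACA it was 1.42, 0.72 and 0.82, so that the sets lay farthest apart in the first library. Fbl, the methyltransferase fibrillarin, was at 263, 254, 214, 280 and 240 CPM in PBS and at 697, 473 and 363 CPM in LPS at 24 h (log2 change 1.03 ± 0.173, edgeR adjusted p = 0.000735). The LPS libraries of Fbl differed widely from each other but did not overlap PBS. Nop56, a scaffold of the same particle, was at 366, 255, 267, 290 and 307 CPM in PBS and at 552, 413 and 547 CPM after LPS (0.76 ± 0.136, edgeR adjusted p = 0.00101). The other scaffold, Nop58, had a log2 change of 0.78 ± 0.142.

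The box H/ACA proteins had both the greatest and nearly the least change of all members. Nhp2, a core RNA-binding protein, was at 133, 93.8, 83.2, 114 and 85 CPM in PBS and at 455, 179 and 197 CPM in LPS at 24 h, a log2 change of 1.44 ± 0.259 (edgeR adjusted p = 0.00104). Its first LPS library was far above the others, and without that library the change was 0.90 (edgeR adjusted p = 0.00765). Nop10, the smallest core protein, was at 138, 132, 109, 141 and 135 CPM in PBS and at 384, 151 and 172 CPM after LPS (0.85 ± 0.245, edgeR adjusted p = 0.0136). Without the first LPS 24 h library the change of Nop10 was 0.32 and its call was lost (edgeR adjusted p = 0.208). Dkc1, the pseudouridine synthase dyskerin, was at 210, 174, 174, 199 and 198 CPM in PBS and at 241, 272 and 310 CPM after LPS (0.52 ± 0.125, edgeR adjusted p = 0.00497). In Dkc1 the first LPS library was the lowest of the 3. Nolc1, a phosphoprotein that binds these particles, had a log2 change of 1.18 ± 0.174, and Gar1 of 1.22 ± 0.21.

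The set of abundant nucleolar proteins and regulators made up much of the members' counts. Ncl, nucleolin, was at 1830, 1370, 1350, 1580 and 1580 CPM in PBS and at 4340, 3100 and 3180 CPM in LPS at 24 h, a log2 change of 1.20 ± 0.144 (edgeR adjusted p = 0.000314), the smallest adjusted p-value of the 45. Npm1, the histone chaperone nucleophosmin, was at 1710, 1310, 1200, 1520 and 1320 CPM in PBS and at 3830, 2480 and 2700 CPM after LPS (1.09 ± 0.173, edgeR adjusted p = 0.000593). Both genes had non-overlapping groups. Ddx21, a helicase that acts on nascent ribosomal RNA, was at 409, 291, 294, 331 and 339 CPM in PBS and at 578, 576 and 698 CPM after LPS (0.89 ± 0.158, edgeR adjusted p = 0.000992). Gnl3, the GTPase nucleostemin, had the least change of this set, 0.76 ± 0.133, and Mybbp1a, a nucleolar MYB-binding protein, had a change of 1.00 ± 0.167.

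Of the 13 factors of the small subunit processome, Noc4l changed most and Ddx10 least. Noc4l was at 87.3, 47.1, 56, 66.8 and 48.1 CPM in PBS and at 221, 117 and 144 CPM in LPS at 24 h (1.39 ± 0.234, edgeR adjusted p = 0.000726). Ddx10, a helicase, was at 69.2, 58.7, 57.1, 70.6 and 63.9 CPM in PBS and at 109, 94.1 and 103 CPM after LPS (0.67 ± 0.103, edgeR adjusted p = 0.000523). The other 11, among them the scaffold protein Heatr1 (1.07 ± 0.166), the WD-repeat proteins Wdr43 (0.94 ± 0.14) and Wdr75 (1.06 ± 0.137) and the U3 particle protein Rrp9 (1.26 ± 0.241), lay between them. Of the 5 factors of late 40S maturation, Rrp12, an export factor, was at 78, 45, 50.4, 62.1 and 60.9 CPM in PBS and at 151, 118 and 144 CPM after LPS (1.21 ± 0.184, edgeR adjusted p = 0.000517). Nob1, the endonuclease that makes the final cut of the small subunit RNA, was at 82.4, 56.5, 57.6, 73.5 and 62.3 CPM in PBS and at 127, 90.2 and 114 CPM after LPS (0.73 ± 0.152, edgeR adjusted p = 0.00224). Groups did not overlap for either gene.

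The 12 factors of 60S assembly had a median log2 change of 0.88. Pes1, Bop1 and Wdr12 form the PeBoW complex, which is needed for processing of the large subunit RNA. Bop1 was at 142, 78.2, 86.4, 112 and 86.5 CPM in PBS and at 320, 209 and 241 CPM in LPS at 24 h (1.34 ± 0.215, edgeR adjusted p = 0.000599). Pes1 was at 190, 140, 144, 183 and 145 CPM in PBS and at 379, 235 and 281 CPM after LPS (0.90 ± 0.14, edgeR adjusted p = 0.000564), and the change of Wdr12 was 0.87 ± 0.142. All 3 subunits rose, Bop1 by the greatest amount in this set. Rrs1, which helps to load the 5S particle, was at 71.2, 58.9, 53.7, 65.8 and 47.5 CPM in PBS and at 110, 99.8 and 112 CPM after LPS (0.85 ± 0.171, edgeR adjusted p = 0.00188). The least change was that of Rrp1, at 207, 188, 184, 213 and 188 CPM in PBS and 327, 244 and 263 CPM after LPS (0.51 ± 0.108, edgeR adjusted p = 0.00264).

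**Figure D2:**
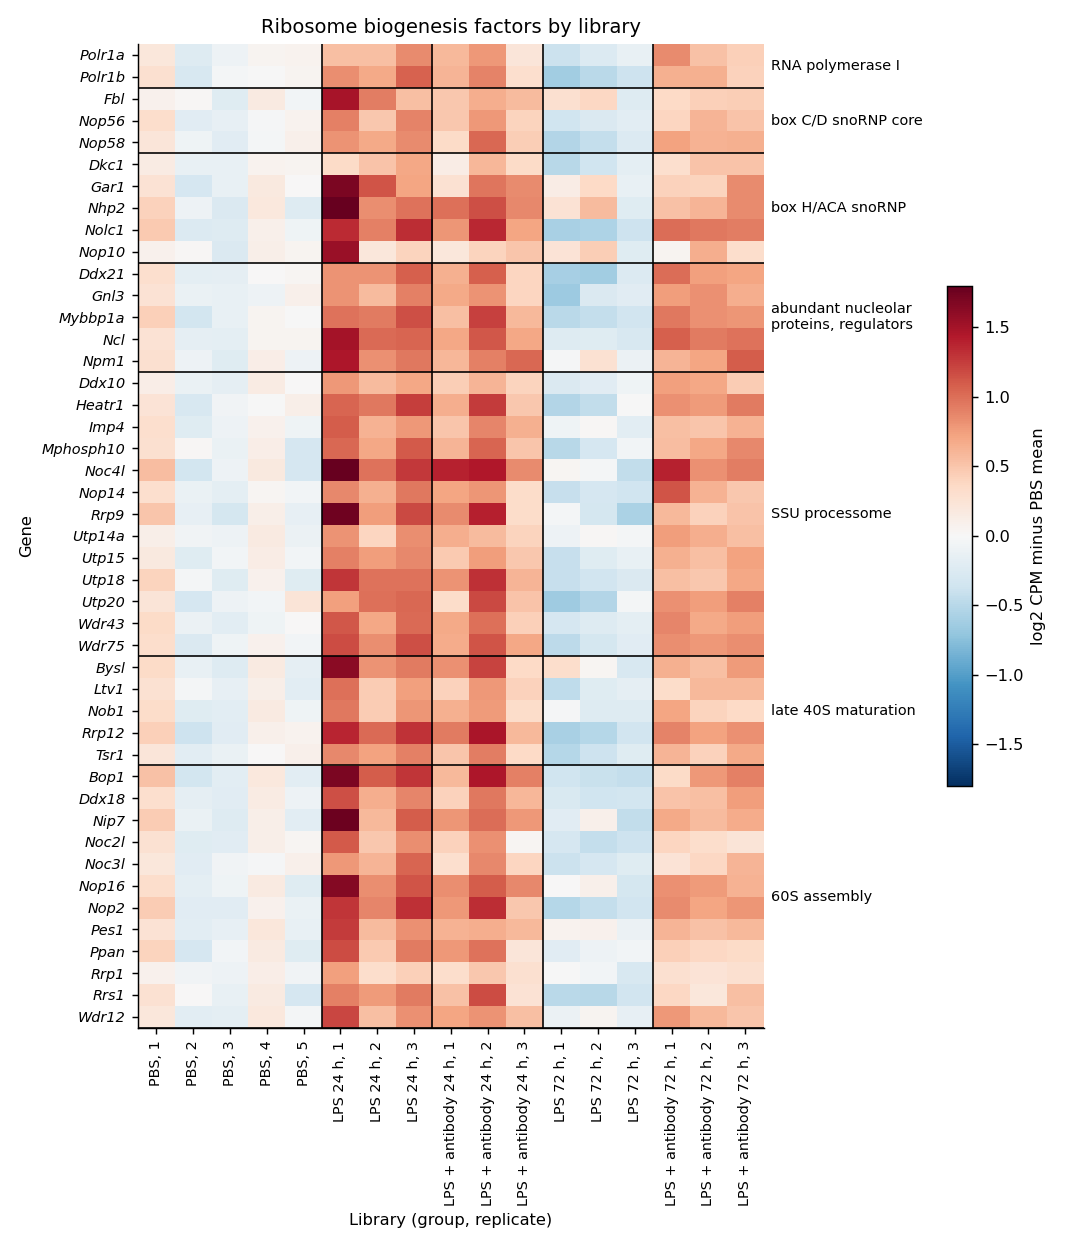
Log2 CPM of each of the 45 genes (rows, grouped by role) in each of the 17 libraries (columns), minus the mean of the PBS libraries for that gene; red is above and blue below that mean, and values past 1.8 share the darkest colour. Columns of LPS at 24 h and of both antibody groups are red in nearly every row, those of LPS at 72 h mostly blue, and Nhp2 and Nop10 are darkest in the first LPS 24 h library.

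At 72 h after LPS alone, no member was called different from PBS. In edgeR's quasi-likelihood test 0 of 45 were called, where 0.0201% of all genes were, and 17 members had an unadjusted p-value below 0.05 (11.4% of all genes did), all with lower values after LPS. DESeq2's Wald test also called 0, and limma's voom with quality weights called 12, all lower. The share of all genes that voom called lower is not given here, so this count stands without its background. The log2 changes ran from -0.52 to 0.21 with a median of -0.28, against -0.03 over all genes. Polr1b had the smallest adjusted p-value, with 54.5, 60.3 and 65 CPM, all below the 5 PBS libraries (-0.51 ± 0.148, edgeR adjusted p = 0.23). Ddx21 was at 218, 215 and 278 CPM, also below all PBS libraries (-0.49 ± 0.164, edgeR adjusted p = 0.286). Npm1, at 1380, 1700 and 1300 CPM, overlapped PBS, with a change of 0.05 and a 95% interval of -0.29 to 0.40. Among the 5 box H/ACA genes, Nolc1 and Dkc1 had values of -0.52 and -0.34, whereas Nhp2, Gar1 and Nop10 had values of 0.21, 0.12 and 0.17. For 17 members every LPS 72 h library was below every PBS library, against 7.01% of all genes.

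Set directly against 24 h, the members fell between the times after LPS alone. Of the 45, 44 fell, against 16.4% of all genes tested, with a median log2 change of -1.19 and a range of -1.78 to -0.61. The exception was Nop10 (-0.68 ± 0.28, edgeR adjusted p = 0.0775). Bop1 had the greatest decrease, from 320, 209 and 241 CPM at 24 h to 77, 74.4 and 73.3 CPM at 72 h (-1.78 ± 0.253, edgeR adjusted p = 0.000265). Rrp12 fell by 1.72 and Nolc1 by 1.71 on the log2 scale. Rrp1 fell by 0.61, the least of the called genes. Without the first LPS 24 h library 44 members were again called, with a median of -1.07, and the changes of Nhp2 and Fbl were then -0.66 and -0.56 in place of -1.23 and -0.87. Among libraries with bracketed names alone, 42 members were called with a median of -1.12.

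With the receptor antibody, most factors were above PBS at both times. At 24 h, 43 of 45 rose against 11.7% of all genes tested, by a median log2 change of 0.68 (range 0.36 to 1.21). The 2 that did not pass were Noc2l (0.45 ± 0.169, edgeR adjusted p = 0.063) and Nop10 (0.38 ± 0.247, edgeR adjusted p = 0.277). This count fell to 17 without the second antibody library at 24 h, which had the highest member level of its group, and to 13 in a fit of libraries 1 to 3 of the 2 groups alone. At 72 h, 32 of 45 rose against 6.81% of all genes tested, by a median of 0.63 (range 0.27 to 1.02), and without the third antibody library at 72 h 18 were called. In a fit of libraries 1 to 3 of the 2 groups alone, 0 were called at 72 h. The counts of these smaller fits are given without their shares over all genes. A loss of calls in the members cannot be told apart there from a loss over all genes. All 5 abundant nucleolar proteins and regulators, both polymerase subunits and 12 of 13 small subunit processome factors were among the 32. So were 5 of 12 factors of 60S assembly. Ncl was at 3230, 2920 and 3010 CPM with the antibody at 72 h, above all PBS libraries (0.98 ± 0.144, edgeR adjusted p = 0.00342). Noc4l had the greatest value, 1.02 ± 0.234, with 155, 105 and 112 CPM. These comparisons share the PBS libraries with those of LPS alone.

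Between 24 h and 72 h within the antibody groups, 0 members were called, and 0 had an unadjusted p-value below 0.05 (4.26% of all genes did). The same count of 0 came from DESeq2 and from voom, and no gene in the whole table was called (0% of 14920). The member median was -0.05 and the values ran from -0.42 to 0.15. Ncl had a value of 0.14 with a 95% interval of -0.18 to 0.46, and Npm1 had -0.04 with an interval of -0.42 to 0.35. Over the 45 genes the intervals reached from -0.96 to 0.52.

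At 24 h, the antibody groups could not be separated from LPS alone. No member was called in edgeR's quasi-likelihood test, DESeq2 or voom, nor was any gene in the table by edgeR (0%). The 45 values were all below 0, with a median of -0.22 and a range of -0.51 to -0.10, and 3 members had an unadjusted p-value below 0.05 (1.83% of all genes did). Ncl was at 2490, 3320 and 2490 CPM with the antibody and at 4340, 3100 and 3180 CPM without it (-0.35, 95% interval -0.68 to -0.03, edgeR adjusted p = 1). Polr1a was at 192, 221 and 149 CPM against 187, 186 and 231 CPM (-0.10, 95% interval -0.42 to 0.21). The intervals do not show that the groups were alike. Without the first LPS 24 h library the median was -0.13.

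At 72 h, by contrast, the antibody groups differed in most members. Of 45, 38 were higher with the antibody than with LPS alone, against 8.64% of all genes tested, by a median log2 change of 0.82 (range 0.18 to 1.45), with the median of all genes at 0.01. For 42 members each antibody library exceeded each library of LPS alone, which held for 17.1% of all genes. The 7 that did not pass were Ppan, Fbl, Rrp9, Bysl, Gar1, Nhp2 and Nop10, so that 3 of the 5 box H/ACA genes were among them. By role, both polymerase subunits, all 5 abundant nucleolar proteins and regulators and 12 of 13 processome factors were called. So were 4 of 5 late 40S factors and 11 of 12 factors of 60S assembly.

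Nolc1 had the greatest difference at 72 h, with 139, 141 and 161 CPM after LPS alone and 415, 399 and 393 CPM with the antibody (1.45 ± 0.203, edgeR adjusted p = 0.00122). Ddx21 was at 218, 215 and 278 CPM after LPS alone and at 663, 551 and 541 CPM with the antibody (1.30 ± 0.184, edgeR adjusted p = 0.00123). Ncl was at 1300, 1320 and 1260 CPM after LPS alone, against the 2920 to 3230 CPM given above (1.24 ± 0.167, edgeR adjusted p = 0.00122). In each of these 3 genes every antibody library was above every library of LPS alone. Polr1b went from 54.5, 60.3 and 65 CPM to 132, 132 and 113 CPM (1.07 ± 0.164, edgeR adjusted p = 0.00157), and Polr1a from 97.6, 108 and 117 CPM to 230, 184 and 173 CPM (0.86 ± 0.162, edgeR adjusted p = 0.00407). Bop1 was at 77, 74.4 and 73.3 CPM against 125, 169 and 184 CPM (1.09 ± 0.249, edgeR adjusted p = 0.0105). The groups of these genes did not overlap.

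Npm1 was at 1380, 1700 and 1300 CPM after LPS alone and at 2150, 2290 and 2980 CPM with the antibody (0.76 ± 0.198, edgeR adjusted p = 0.0195). Its call was lost without the first LPS 72 h library (edgeR adjusted p = 0.0861) or the third antibody library (0.0703). Pes1 was at 166, 167 and 148 CPM against 244, 229 and 238 CPM (0.56 ± 0.16, edgeR adjusted p = 0.0283). The call of Pes1 was lost without any 1 library of LPS alone or without antibody library 1 or 3 (edgeR adjusted p of up to 0.0825), and that of Rrp1 without any 1 of the 6 libraries (up to 0.0935). Calls of Rrs1, Wdr12, Noc2l, Noc3l, Imp4, Nip7 and Nob1 were also lost without at least 1 library. By contrast Fbl, at 305, 323 and 212 CPM against 321, 335 and 340 CPM, overlapped (0.25 ± 0.198, 95% interval -0.14 to 0.63, edgeR adjusted p = 0.41). Nop10, at 154, 178 and 112 CPM against 135, 205 and 162 CPM, also overlapped (0.18 ± 0.279, 95% interval -0.37 to 0.73, edgeR adjusted p = 0.689). Without the first LPS 72 h library, 29 members were called in this comparison.

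**Figure D3:**
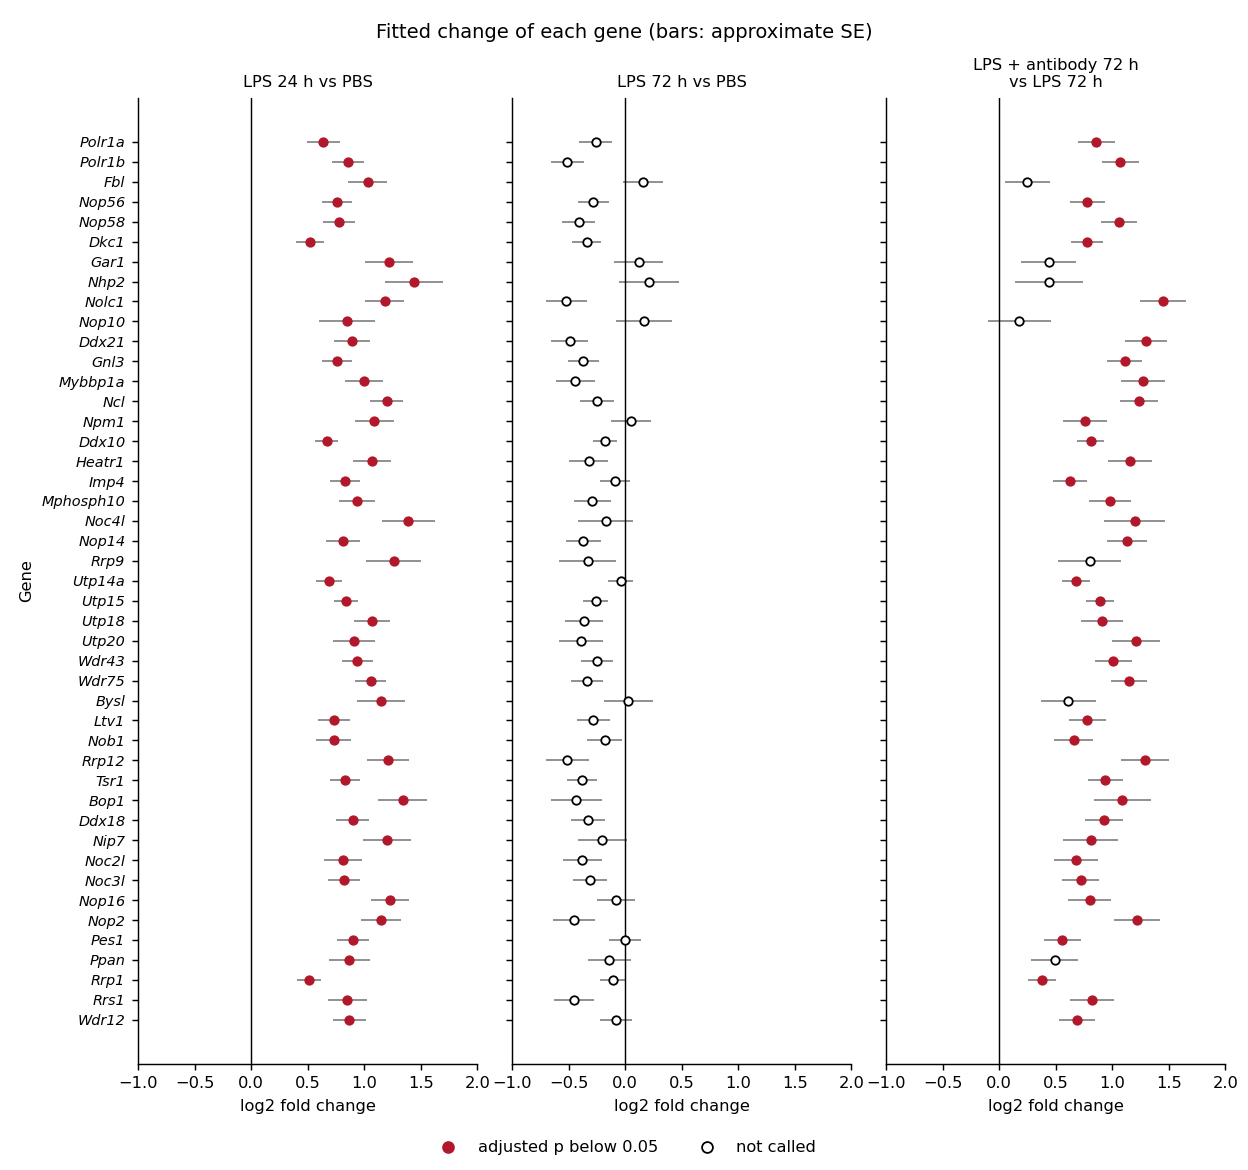
Fitted log2 change of each of the 45 genes (points) with its approximate SE (bars) in 3 comparisons; filled points have an adjusted p-value below 0.05. All points of the first panel are filled and lie between 0.51 and 1.44, no point of the second is filled, and in the third 38 are filled.

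Whether the antibody effect changed from 24 h to 72 h was tested as an interaction. The value was positive for all 45 members, with a median of 1.11 and a range of 0.53 to 1.68, and 35 passed the test in edgeR against 4.03% of all genes tested. Nolc1 had the greatest value (1.68 ± 0.282, edgeR adjusted p = 0.00831), followed by Ncl (1.59 ± 0.234, edgeR adjusted p = 0.00831). Rrp1, Nip7, Ppan, Fbl, Rrp9, Nob1, Bysl, Gar1, Nhp2 and Nop10 did not pass. This count moved with the libraries used. It was 21 when only the 4 groups concerned were fitted, 17 without the third antibody library at 24 h, 17 without the first LPS 72 h library and 22 without the first antibody library at 24 h. Among libraries with bracketed names alone, 0 were called with a median of 0.95. That fit lacks the first library of each 24 h group, and its share of all genes called is not given here. Without the first LPS 24 h library 24 were called, with a median of 0.98.

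The 45 genes varied together from library to library as well as between groups. After each group's mean was removed, the mean pairwise Pearson correlation of their log2 CPM was 0.579 over the 17 libraries, against 0.00275 over pairs of all genes tested. It was 0.902 for cytosolic ribosomal proteins, 0.832 for erythroid markers, 0.504 for proliferation genes and 0.475 for other factors of the small subunit, so that a value of this size was not particular to the members. Genes of the same library share its depth and scaling, and the values are a description. Within the members it was 0.917 for the 2 polymerase subunits, 0.72 for the 3 PeBoW subunits, 0.69 for 60S assembly, 0.363 for box H/ACA proteins and 0.286 for box C/D proteins. Dkc1 (0.389), Fbl (0.39) and Nop10 (0.421) were least like the mean of the other 44, and Nolc1 (0.94) and Nop2 (0.937) most like it. The coefficient of variation between libraries had a median over members of 14.7% in PBS, 15.7% in LPS at 24 h, 19.2% with the antibody at 24 h, 9.04% in LPS at 72 h and 7.77% with the antibody at 72 h. The greatest, 55.9%, was in LPS at 24 h.

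Other genes of the same pathway, from lists of factors that are not members, had smaller medians of the same sign in these comparisons. At 24 h after LPS, 9 of 14 other genes of the polymerase I machinery rose and 1 fell, with a median of 0.49. Among all genes tested, 19.1% were called higher and 18.5% lower in that comparison. Polr1d, a polymerase subunit, rose most (0.86 ± 0.207, edgeR adjusted p = 0.00522), and Ttf1, the transcription termination factor, fell (-0.38 ± 0.131, edgeR adjusted p = 0.0321). Of 44 other factors of the small subunit, 41 rose (median 0.72), Tbl3 most (1.29 ± 0.174, edgeR adjusted p = 0.000434). Of 50 other factors of 60S assembly, 44 rose (median 0.73), Mrto4 most (1.53 ± 0.254, edgeR adjusted p = 0.000716). With the antibody at 24 h, 6, 31 and 35 of these 3 lists were above PBS, where 11.7% of all genes were. With the antibody at 72 h 3, 18 and 24 were, where 6.81% of all genes were. After LPS alone at 72 h 0 were called in any of the 3 lists (0.0201% of all genes were). Their medians were -0.03, -0.12 and -0.15, and that of all genes was also -0.03. Between antibody and LPS alone at 72 h, 6 of 14, 20 of 44 and 31 of 50 were higher, where 8.64% of all genes were.

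The genes of the 79 cytosolic ribosomal proteins, the protein constituents of the finished ribosome, had medians of smaller size or opposite sign. At 24 h after LPS 6 of 79 rose, where 19.1% of all genes were called higher, with a median log2 change of 0.27. At 72 h after LPS alone 0 were called, where 0.0201% of all genes were. In edgeR's test 50 had an unadjusted p-value below 0.05 in either direction, where 11.4% of all genes did. The median was 0.47, where that of the assembly factors was -0.28. Between antibody and LPS alone at 72 h the median was -0.52 and 4 fell (6.48% of all genes were called lower), where 38 of 45 assembly factors rose. Whether the 2 lists differed was not tested. Their summed level was uneven between libraries: it was 170000 CPM in the first LPS 24 h library against 88900 and 97500 CPM in the other 2, and 164000, 153000 and 98800 CPM in the LPS 72 h libraries, whose assembly factors had means of 6.52, 6.60 and 6.55 log2 CPM.

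**Figure D4:**
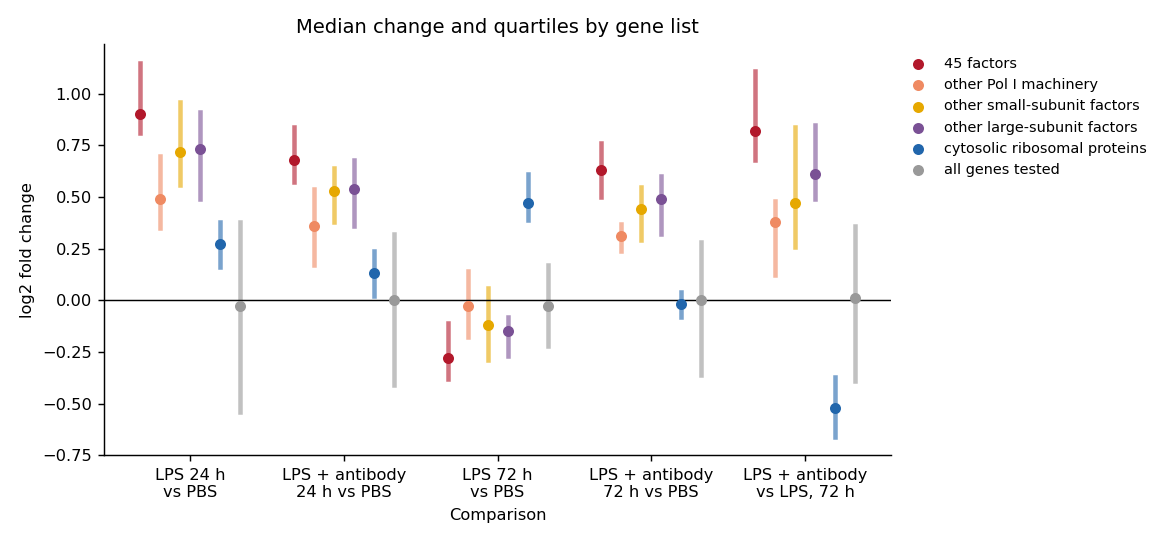
Median log2 change (points) and quartiles (bars) of the 45 assembly factors, of 3 lists of other ribosome biogenesis genes, of 79 cytosolic ribosomal protein genes and of all 14920 genes tested, in 5 comparisons. The assembly factors lie farthest from 0 in 4 of the 5 comparisons, and ribosomal proteins have the opposite sign to them at 72 h after LPS alone and between antibody and LPS alone at 72 h.

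Markers of other cells and of dividing cells were not level across the groups. Among all genes tested, 19.1% were called higher and 18.5% lower at 24 h after LPS. Of 26 proliferation genes 12 rose at that time, and their summed level was 7640 to 9080 CPM against 6210 to 7500 CPM in PBS. At 72 h the range was 6580 to 8270 CPM after LPS alone and 6720 to 9190 CPM with the antibody, with 1 of 26 called higher. Between these 72 h groups 8.64% of all genes were called higher and 6.48% lower with the antibody. Of 15 HSPC markers 7 fell at 24 h after LPS, with summed levels of 2060 to 2240 CPM against 2670 to 3360 CPM in PBS. At 72 h their summed level was 2760 to 3340 CPM after LPS alone and 2110 to 2770 CPM with the antibody, with 1 of 15 called lower. Monocyte and macrophage markers were lower in 10 of 14 at 24 h after LPS, where 18.5% of all genes were. Their summed levels were 411 to 787 CPM against 657 to 3090 CPM in PBS. B-lymphoid and plasma cell markers were lower in 4 of 12 at that time, with 255 to 370 CPM against 582 to 1550 CPM. T and NK cell markers were lower in 4 of 12, with 112 to 281 CPM against 118 to 298 CPM. None of the markers in these 3 lists was at 0 in all libraries of a group. Stromal and endothelial markers, 8 genes of which 5 passed the filter, had summed levels of 143 to 181 CPM in PBS, 71.1 to 102 CPM in LPS at 24 h, 93.6 to 129 CPM with the antibody at 24 h, 188 to 209 CPM in LPS at 72 h and 118 to 132 CPM with the antibody at 72 h. Of these 5, Pecam1 was called, at -0.81 for LPS at 24 h against PBS and at -0.82 for antibody against LPS alone at 72 h (edgeR adjusted p = 0.00131 and 0.00584). Up to 3 of the 8 were at 0 in all libraries of a group. The part of all these lists in the result for the members was not tested.

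Erythroid markers, 14 genes including the globins, varied most. Their summed level was 240 to 451 CPM in PBS, 389 to 861 CPM in LPS at 24 h, 34.6 to 2150 CPM with the antibody at 24 h, 13.2 to 147 CPM in LPS at 72 h and 14.3 to 1330 CPM with the antibody at 72 h. None was at 0 in all libraries of a group, but 5 of 14 had a mean below 1 CPM in LPS at 72 h. The 3 antibody libraries at 72 h had erythroid levels of 1330, 191 and 14.3 CPM and member means of 7.44, 7.39 and 7.44 log2 CPM. The LPS 72 h libraries had erythroid levels of 147, 43.6 and 13.2 CPM and member means of 6.52, 6.60 and 6.55 log2 CPM. The part of erythroid markers in the difference between these groups was not tested.

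**Figure D5:**
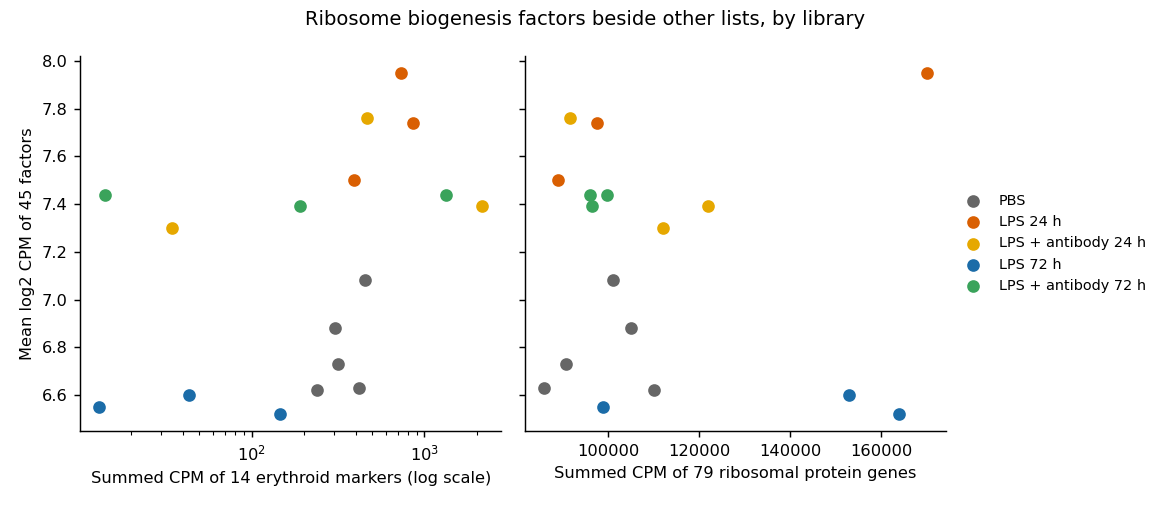
Mean log2 CPM of the 45 assembly factors in each library (vertical axis) against the summed CPM of 14 erythroid markers (left, log scale) and of 79 ribosomal protein genes (right). The antibody libraries at 72 h have member levels of 7.39 to 7.44 and erythroid levels of 14.3 to 1330 CPM.

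Since the members moved together, their promoters were searched for 2 short words that are known from promoters of growth genes: CACGTG, the canonical E-box bound by MYC and related factors, and its variant CACGCG, read on both strands, so that the latter also appears as CGCGTG. Windows from 250 bases before to 50 bases after the annotated start were available for 40 of the 45 members, from RefSeq on build GRCm38.p6. CACGTG was in 9 of 40 members (22.5%), against 11.5% of tested genes with a window and 8.09% of all genes. CACGCG was in 16 of 40 (40%), against 19.1% of tested genes and 10.5% of all. Either word was in 23 of 40 (57.5%), against 28% and 17.2%, and 2 members, Pes1 and Mybbp1a, held both. These shares are descriptions and were not tested, and a match is not evidence of binding.

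The 6 windows below show both words, one word and neither, in members of different roles. They read in the direction of the gene, and capitals mark the words. Mybbp1a (chr11:72441077-72441376, plus strand) has 2 copies of the variant that share bases 115 and 111 bases before the start and the E-box 41 bases after it. Pes1 (chr11:3963725-3964024, plus strand) has the variant 247 bases before and the E-box 3 bases after the start. Nop2 (chr6:125131633-125131932, plus strand) has the E-box 60 bases before the start, Wdr43 (chr17:71615965-71616264, plus strand) 18 bases after it, and Nolc1 (chr19:46075597-46075896, plus strand) has the variant 25 bases before it. Ncl (chr1:86359406-86359705, minus strand) has neither word.
Mybbp1a: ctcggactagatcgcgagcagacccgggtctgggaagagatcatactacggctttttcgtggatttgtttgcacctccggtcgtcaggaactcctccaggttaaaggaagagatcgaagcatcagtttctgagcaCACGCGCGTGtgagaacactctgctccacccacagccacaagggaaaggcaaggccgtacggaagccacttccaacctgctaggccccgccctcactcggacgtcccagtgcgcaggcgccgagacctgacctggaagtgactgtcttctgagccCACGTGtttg
Pes1: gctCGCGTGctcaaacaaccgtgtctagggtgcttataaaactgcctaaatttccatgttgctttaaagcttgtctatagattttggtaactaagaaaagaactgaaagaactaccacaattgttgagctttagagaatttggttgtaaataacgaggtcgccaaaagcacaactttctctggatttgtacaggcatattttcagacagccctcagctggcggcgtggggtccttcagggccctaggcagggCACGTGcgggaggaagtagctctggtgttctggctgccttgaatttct
Nop2: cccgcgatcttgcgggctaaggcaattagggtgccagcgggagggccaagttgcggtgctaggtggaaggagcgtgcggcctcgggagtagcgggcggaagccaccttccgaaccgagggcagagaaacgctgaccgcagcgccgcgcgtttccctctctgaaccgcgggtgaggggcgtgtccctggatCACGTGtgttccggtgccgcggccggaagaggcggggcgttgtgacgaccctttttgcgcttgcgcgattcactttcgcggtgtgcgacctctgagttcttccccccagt
Wdr43: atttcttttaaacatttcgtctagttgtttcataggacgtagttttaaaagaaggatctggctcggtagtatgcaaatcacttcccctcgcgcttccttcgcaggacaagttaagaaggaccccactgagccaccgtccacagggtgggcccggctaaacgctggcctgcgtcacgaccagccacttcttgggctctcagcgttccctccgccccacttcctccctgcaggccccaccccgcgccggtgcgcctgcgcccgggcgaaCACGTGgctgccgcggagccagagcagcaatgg
Nolc1: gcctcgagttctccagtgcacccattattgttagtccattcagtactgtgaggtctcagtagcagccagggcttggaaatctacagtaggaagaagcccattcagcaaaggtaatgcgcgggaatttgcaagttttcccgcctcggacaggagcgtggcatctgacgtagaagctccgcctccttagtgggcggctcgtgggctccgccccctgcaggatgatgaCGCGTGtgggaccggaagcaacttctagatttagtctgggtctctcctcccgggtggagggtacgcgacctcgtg
Ncl: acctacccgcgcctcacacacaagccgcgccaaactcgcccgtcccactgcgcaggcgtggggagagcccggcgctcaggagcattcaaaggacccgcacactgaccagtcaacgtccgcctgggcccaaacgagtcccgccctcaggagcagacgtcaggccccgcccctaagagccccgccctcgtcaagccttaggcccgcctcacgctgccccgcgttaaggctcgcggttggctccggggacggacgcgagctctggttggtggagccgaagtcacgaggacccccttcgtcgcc

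The values of these 6 members are given beside their words as a description. Nolc1, with the variant, and Ncl, with neither, had changes of 1.18 and 1.20 at 24 h after LPS and differences of 1.45 and 1.24 between antibody and LPS alone at 72 h. Wdr43, with the E-box, was at 112, 118 and 123 CPM after LPS alone at 72 h and at 254, 223 and 233 CPM with the antibody (1.01 ± 0.162, edgeR adjusted p = 0.00184). Mybbp1a and Pes1, with both words, had differences of 1.27 ± 0.194 and 0.56 ± 0.16 at 72 h. Nop2, with the E-box near its start, was at 71.2, 75.7 and 79.9 CPM after LPS alone at 72 h and at 184, 167 and 176 CPM with the antibody (1.22 ± 0.207, edgeR adjusted p = 0.00256), groups that did not overlap.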

How the data were processed

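RNA was sequenced in 17 libraries. The authors deposited 1 table of raw counts per gene symbol. Per the submitters' processing notes, HISAT2 2.2.0, Subread's featureCounts 2.1.1, R 4.3.2 and DESeq2 were used with build GRCm38. Strandedness and the treatment of reads that match several genes are not given in the sources used here. There were 0 columns without a matching label, and 13321 genes were at 0 in every library. Members and lists were chosen with earlier results of these data known, so no p-value over a list is given. Genes were named in full by role: the greatest and least change at 24 h after LPS, plus Ncl, Npm1, Fbl, Nop56, Dkc1, Polr1a, Polr1b, Pes1, Bop1, Rrs1 and Ddx21.

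Counts were fitted with edgeR 4.0.16 in R 4.3.3 (glmQLFit, glmQLFTest) on all 17 libraries, with a mean per group, TMM scaling and filterByExpr (minimum count 10, minimum total 15). The 14920 genes kept held 99.9% of counts. Benjamini-Hochberg adjustment ran over all genes tested, and calls are at 0.05. Standard errors are the absolute change divided by the root of F, and 95% intervals follow from them. Log2 CPM used a prior count of 2. DESeq2 1.42.0 and limma 3.58.1 (voom) were alternatives, as were other scalings, filters, libraries and a replicate block. Scripts were tested on simulated data. The deviations of same-numbered PBS and LPS 24 h libraries from their group means had correlations of 0.158 to 0.191 in 3 pairs. Libraries of unlike number were not compared, so these values have no baseline and do not show a pairing. With the replicate number as a block 45 of 45 members were again called. Positions are from GENCODE M21 on GRCm38.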

Additional observations from a re-analysis of the deposited data

Results flagged for a closer look

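The antibody effect differed between the times in 35 of the 45 factors, by edgeR's test of the interaction (adjusted p-value below 0.05 over all genes tested). The values below are the log2 antibody effect at 72 h minus that at 24 h. They were 0.96 and 1.31 for the polymerase subunits Polr1a and Polr1b, and 0.99 and 1.21 for the box C/D proteins Nop56 and Nop58. Dkc1 and Nolc1 of the box H/ACA set had values of 0.94 and 1.68. Among the abundant nucleolar proteins and regulators the values were 1.59 for Ncl, 1.00 for Npm1, 1.48 for Ddx21, 1.24 for Gnl3 and 1.48 for Mybbp1a. In the small subunit processome they were 1.33 for Nop14, 1.25 for Wdr43, 1.37 for Wdr75, 0.82 for Utp14a, 1.16 for Utp15, 1.06 for Utp18, 1.41 for Utp20, 1.38 for Noc4l, 1.00 for Ddx10, 1.40 for Heatr1, 0.79 for Imp4 and 1.20 for Mphosph10. The late 40S factors Rrp12, Tsr1 and Ltv1 had values of 1.49, 1.16 and 0.97. In 60S assembly they were 0.98 for Rrs1, 1.48 for Nop2, 1.11 for Nop16, 0.88 for Wdr12, 1.44 for Bop1, 0.85 for Pes1, 1.04 for Noc2l, 1.01 for Noc3l and 1.17 for Ddx18. All 35 were positive, and 0 of them were called among libraries with bracketed names alone. That fit lacks the first library of each 24 h group, and its share of all genes called is not given here. The 0 therefore cannot be told apart from a loss of calls over all genes.

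In PBS, the third library of Nop10 was at 109 CPM, apart from the other 4 at 132 to 141 CPM by Dixon's test. It was 1 of 47 sets of PBS libraries examined, of which chance would set apart about 1 in 20.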

How the results depend on the processing

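No alternative reversed the sign of a called value of a member. For LPS at 24 h against PBS the counts of members called were 44 or 45 in every alternative, and the median was 0.67 with unscaled library totals. For LPS at 72 h against PBS voom called 12 members and each other alternative 0. The calls of both antibody groups against PBS depended on the PBS libraries and on single libraries: at 24 h 0 were called with the replicate number as a block, 13 with libraries 1 to 3 alone and no block, and 17 to 44 without single libraries (17 without antibody library 2). At 72 h 0 were called with the block and 0 with libraries 1 to 3 alone and no block. With both counts at 0, the part of the block cannot be seen there. Without single libraries 18 to 36 were called at 72 h (18 without antibody library 3). For antibody against LPS alone at 72 h, 26 of 38 calls were left with the block and 29 to 37 without single libraries. There the median was 0.73 with upper-quartile scaling, 0.86 with voom, 0.71 in the upper part of genes by mean level, 0.86 with the block, 0.86 in libraries with bracketed names and 0.82 to 0.94 without single libraries. For the interaction, 21 were called in a fit of the 4 groups alone, 4 with the block, 21 with libraries 1 to 3 alone and no block, 0 in libraries with bracketed names, and 17 to 39 without single libraries. The counts above are given without the share of all genes called in the same fit. A change in the members therefore cannot be told apart from one over all genes. The cause of these differences was not tested. The block changed no call count by over 1.5 times elsewhere. Outside LPS at 24 h against PBS the correlations of same-numbered libraries varied more from pair to pair. Between the antibody groups at 72 h and 24 h the correlations were 0.723, -0.0217 and 0.697 for numbers 1, 2 and 3. Between antibody and LPS alone at 72 h they were 0.267, 0.0108 and 0.319. The labels do not say whether libraries of the same number share more than that number, and this was not tested.

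The fit to library totals and the fit to bracketed names were chosen after seeing the data. Upper-quartile scaling moved the median of all genes at 24 h after LPS from -0.03 to -0.16. With 3 libraries in most groups, the spread is estimated over all 17. The lowest count of a member was 314.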
